A study of Mus musculus with 24 samples.

Results

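The genes described here encode the extracellular matrix of the mouse dorsal root ganglion (DRG): collagen chains, laminin chains, the nidogens that tie laminin to collagen, small leucine-rich proteoglycans, fibronectin and a few companions. Members were taken by symbol from a deposited transcript table: every numbered collagen alpha chain, every laminin alpha, beta or gamma chain, and Dcn, Lum, Bgn, Fn1, Sparc, Postn, Nid1, Nid2 and Eln. The most abundant transcript stood for each symbol. This gave 46 genes of the 14066 symbols in the table, out of 67 transcripts that carried their names among 19571. Fbn1 was on the same selection and was not analysed here. All 46 genes passed the filter on low counts. Their levels averaged at least 10 CPM (counts per mega counts of a library, scaled by TMM) for 27 genes and less for 19.

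Per the labels, wild-type mice aged 12 weeks, of a strain written both C57/BL6 and C57B/L6, had the sciatic nerve crushed. Camptothecin, which traps DNA topoisomerase I on DNA, was injected into the peritoneum of injured mice at 2 mg/kg, 30 min after the crush. Other injured mice received vehicle. Whole ganglia were taken 18, 24 or 36 h after injury, so every group carried the crush and no uninjured ganglion entered the comparisons. Of 24 labelled samples, 19 had columns: 3 vehicle libraries at each time, and 3, 4 and 3 camptothecin libraries at 18, 24 and 36 h. The labels do not say how many animals gave 1 sample. The protocol text speaks of "IP or FT RNA" as input to the cDNA kit without saying what this means for these samples.

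Vehicle libraries held 3.62 to 8.32 M counts (M for mega) and camptothecin libraries 6.64 to 15.04 M counts. At each time the deepest vehicle library was below the shallowest library with camptothecin. Depth and treatment therefore cannot be told apart. The labelled tissue was checked against neuronal RNA, in which 11 sensory neuron markers summed to between 24157 and 38976 CPM in the 19 libraries.

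Collagens are built from alpha chains wound into a triple helix. Fibrillar collagens I, III and V give tissue its tensile fibres, collagen IV forms the mesh of basement membranes, and collagen VI makes beaded filaments around cells. Laminins, each a cross of an alpha, a beta and a gamma chain, form the other basement membrane network, and nidogens join it to collagen IV. In peripheral nerve and ganglia, Schwann cells and satellite glia lie on a basement membrane, and fibroblasts and perineurial cells deposit the fibrillar matrix between and around them. The proteoglycans decorin, lumican and biglycan sit on collagen fibrils, and fibronectin is an early scaffold of healing tissue.

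Per unit of transcript length, the most abundant matrix RNA was Nid1, with a mean of 81.7 CPM per kb over the 19 libraries. Col1a2 (62.0 CPM per kb), Lum (49.0), Col3a1 (41.2), Col1a1 (39.3) and Dcn (38.4) followed it. Thus a basement membrane linker, the chains of collagens I and III, and 2 small leucine-rich proteoglycans led the list. Next came Col8a1, a short-chain collagen of vessel walls, at 23.6 CPM per kb, then Fn1 at 22.0 and Bgn at 20.6. Col28a1, a collagen known from peripheral nerve, reached 19.7 CPM per kb.

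**Figure D1:**
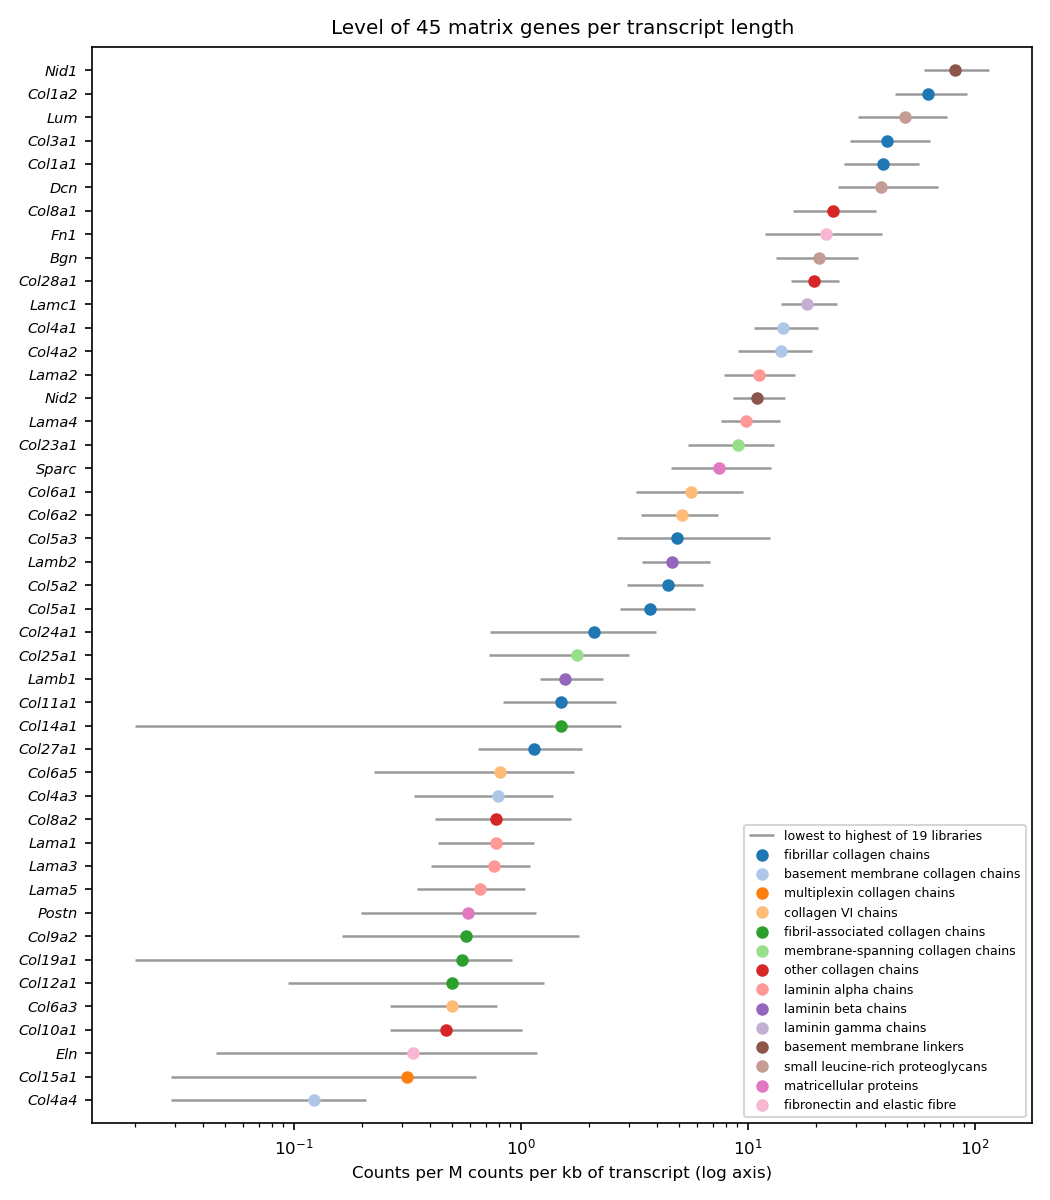
Level of 45 of the 46 matrix genes in CPM per kb of transcript, on a log axis. Points are means over 19 libraries, coloured by role, and grey lines run from the lowest to the highest library, with 0 drawn at 0.02. Nid1 lies highest at 81.7 and Col4a4 lowest at 0.122.

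Within basement membranes, Col4a1 and Col4a2, the chains of the common collagen IV, stood at 14.35 and 14.01 CPM per kb. Col4a3 (0.795) and Col4a4 (0.122), chains of a collagen IV known from kidney, stood far below them. Among laminin chains Lamc1, the gamma chain shared by most laminins, was highest at 18.23 CPM per kb. The alpha chains Lama2, characteristic of Schwann cell and muscle laminin, and Lama4, known from vessels and nerve, reached 11.2 and 9.85. Lama1, Lama3 and Lama5 stayed between 0.664 and 0.776. Of the beta chains, Lamb2 measured 4.63 and Lamb1 1.56 CPM per kb. The laminin chains highest per kb were thus Lamc1, Lama2, Lama4 and Lamb2.

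At the low end stood fibril-associated collagens (Col9a2, Col12a1, Col14a1 and Col19a1, 0.4997 to 1.498 CPM per kb), Col15a1, a collagen that carries heparan or chondroitin sulfate (0.314), and the elastic fibre protein Eln (0.337). Postn, Col12a1 and Col19a1 were represented by transcripts annotated as not protein coding, so their values describe those transcripts and not the coding RNA. Col14a1 and Col19a1 were at 0 counts in vehicle 18 h replicate 1. For 12 genes the table held more than 1 transcript. The member transcript held 79.1% of the counts of its symbol for Dcn, 64.6% for Sparc and 62.3% for Lamb1.

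Ratios between partner genes were taken per kb within each library. The level per kb of Col1a1 was 0.634 ± 0.046 of that of Col1a2 (SD, n = 19 libraries), with a range of 0.560 to 0.709. Both chains are parts of the collagen I molecule, which holds more of the alpha1 chain. Col4a1 and Col4a2 stood at a ratio of 1.04 ± 0.15. These 2 genes lie head to head on chromosome 8, and their annotated transcripts overlap by 22 bases. Nid1 exceeded Nid2 in every library, by a ratio of 7.45 ± 0.79 per kb.

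Over the 19 libraries, log2 levels of Col1a1 and Col1a2 had a Pearson r of 0.937 and a Spearman rho of 0.933 (permutation p = 1e-05 for both, the smallest the resampling can give). This was 1 of 8 pairs examined, and adjusted over those 8 both p-values were 8e-05. After leaving out the 2 libraries farthest from the median r was 0.900, and within the 6 groups it was 0.936. Dcn and Lum, which lie 47.0 kb apart on chromosome 10, gave r = 0.613 and rho = 0.623 (adjusted permutation p = 0.00838 and 0.00851), and r = 0.442 without the 2 farthest libraries. Within groups r was 0.647. Col4a3 and Col4a4, a further head-to-head pair, showed no such relation at their low counts (r = -0.17, rho = -0.06, permutation p = 0.490 and 0.810). The permutations shuffled libraries across the 6 groups, so their p-values do not set differences between groups aside. Dcn and Lum were both called higher in camptothecin at 36 h than at 18 h in these same libraries, so their pooled relation was partly built in.

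At 36 h the proteoglycan gene Dcn (decorin, ENSMUST00000105287, chromosome 10, 97479609 to 97518143, plus strand, 8 exons, mm10) was higher after camptothecin. Its vehicle libraries held 63.7, 55.4 and 43.8 CPM and its camptothecin libraries 121, 88.5 and 89.7 CPM. The lowest camptothecin library thus exceeded the highest vehicle library. The means were 54.3 ± 10.0 and 99.7 ± 18.397 CPM (SD, n = 3 and 3). Dcn rose by a log2 fold change of 0.88 ± 0.18 (SE), or 1.84-fold (edgeR adjusted p = 0.0102, adjusted over all 18606 transcripts tested). Without camptothecin 36 h replicate 1 the log2 fold change was 0.72 (adjusted p = 0.0892), and without vehicle 36 h replicate 3 it was 0.90 (adjusted p = 0.0675). The call held when any other single library was left out. The authors' deposited table gives a log2 fold change of 0.74 and an adjusted p of 0.0129 for Dcn at 36 h, its only adjusted value under 0.05 for a matrix gene at any time. A second coding transcript of Dcn, with a mean of 17.8 CPM, had a log2 fold change of 0.55 (adjusted p = 0.200).

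The other member called at 36 h was Col11a1, the alpha1 chain of collagen XI, a minor fibrillar collagen that sets fibril diameter. Vehicle libraries held 11.2, 14.1 and 12.3 CPM and camptothecin libraries 7.02, 7.49 and 6.41 CPM. All camptothecin libraries lay below all vehicle libraries. Its level fell by 0.84 on the log2 scale (SE 0.22), or 1.79-fold (edgeR adjusted p = 0.0396). The underlying counts were few: 46, 48 and 76 in vehicle and 75, 76 and 62 in camptothecin. The call was lost in 9 of the 19 fits that each left out 1 library. These were vehicle 24 h replicate 3 (adjusted p = 0.0536), vehicle 36 h replicates 2 (0.0875), 3 (0.194) and 4 (0.0515), camptothecin 18 h replicate 2 (0.0525), camptothecin 24 h replicate 2 (0.0504) and camptothecin 36 h replicates 1 (0.147), 2 (0.0771) and 3 (0.142). It was also lost with counts thinned to the smallest library (adjusted p = 0.0702), with a correction for GC content (0.112), with the replicate block (0.0655) and with the block and the GC correction together (0.0767).

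These 2 genes were 2 of 46 members called at 36 h. Of all transcripts tested, 2.5% were called in either direction, 0.188% higher and 2.32% lower. That background of 466 calls depended on single libraries. It was 1 without vehicle 36 h replicate 3 and 73 without replicate 2. Without camptothecin 36 h replicates 1, 2 and 3 it was 8, 258 and 199, and without vehicle 36 h replicate 4 it was 1015. The GC correction left 35 calls and the replicate block gave 845. The other 44 members did not pass, but 32 of the 46 log2 fold changes lay above 0, with a median of 0.29. Over all transcripts tested 48.4% lay above 0 and the median was -0.02. For 10 members all camptothecin libraries exceeded all vehicle libraries, and for 1, Col11a1, all were lower. Groups did not overlap in this way, higher or lower, for 9.6% and 8.7% of all transcripts.

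**Figure D2:**
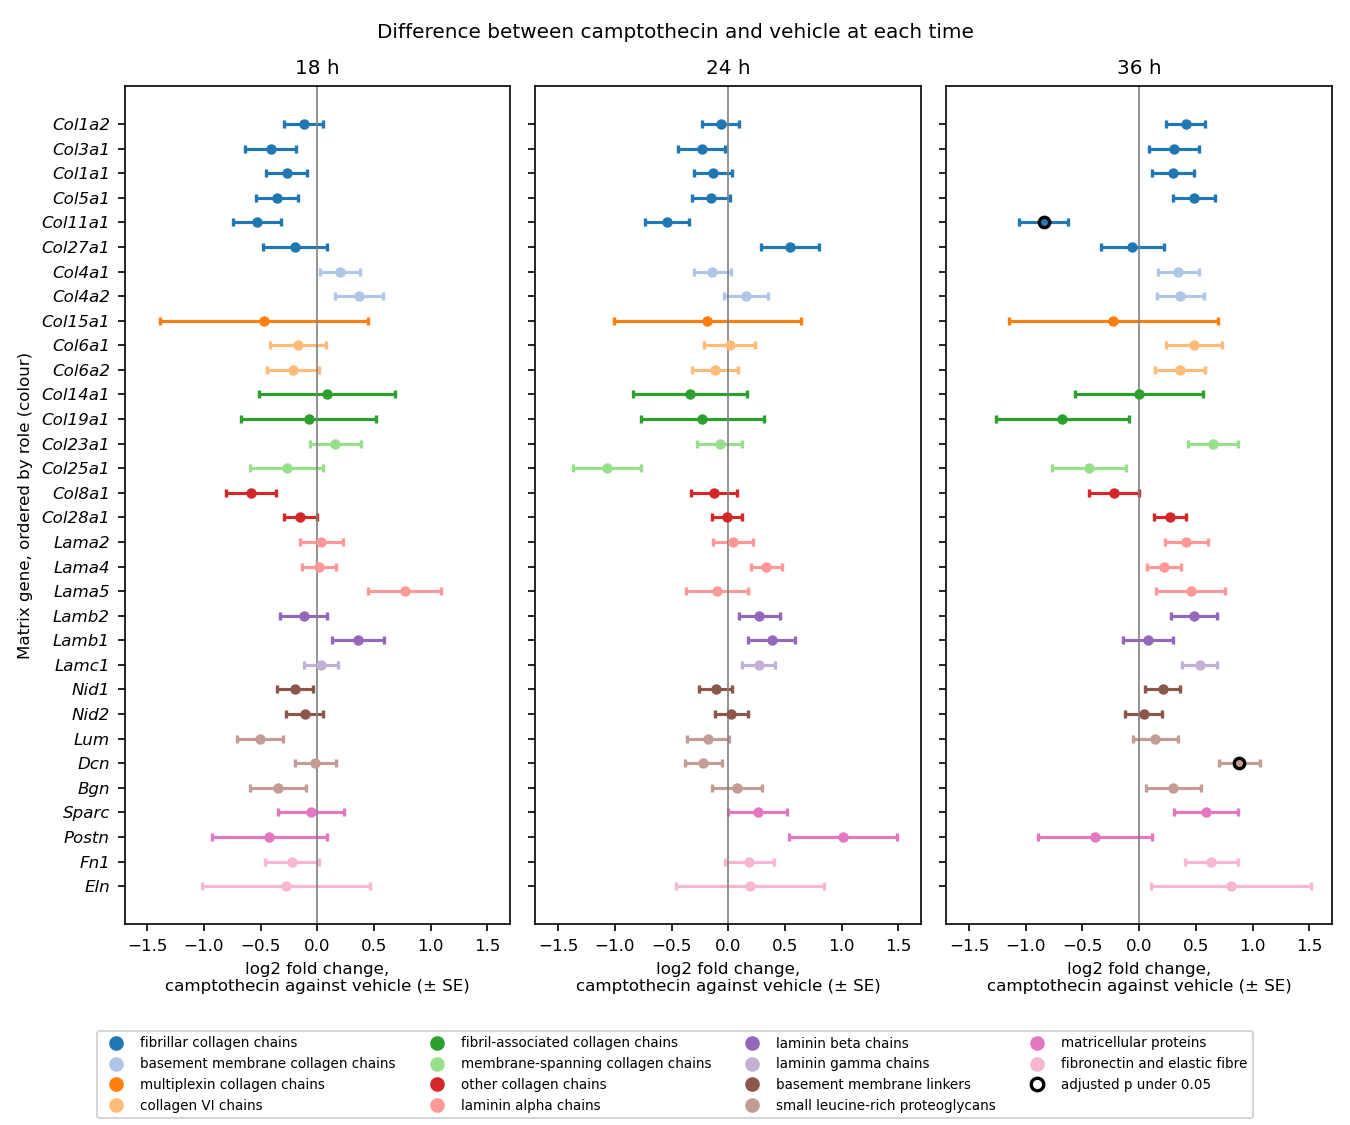
Log2 fold change of camptothecin against vehicle, with its standard error, for 32 matrix genes chosen by the naming rule, at 18, 24 and 36 h. Colours give roles and black rings an edgeR adjusted p under 0.05. Rings appear only at 36 h, on Dcn at 0.88 and Col11a1 at -0.84.

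Laminin and basement membrane genes lay mostly above 0 at 36 h without passing the test. Lamc1 came closest: vehicle libraries held 141, 115 and 106 CPM and camptothecin libraries 188, 171 and 165 CPM. Every camptothecin library was above every vehicle library (log2 fold change 0.53 ± 0.15, edgeR adjusted p = 0.0663), and DESeq2 called it (0.54, adjusted p = 0.0156), as it did 7% of the 13915 transcripts given an adjusted p. Lamb2 stood at 21.7 ± 1.87 CPM in vehicle and 30.3 ± 6.96 CPM in camptothecin (0.49 ± 0.20, adjusted p = 0.237), and Lama2 at 99.6 ± 14.6 and 133 ± 21.5 CPM (0.41 ± 0.19, adjusted p = 0.287). The 4 collagen IV chains had log2 fold changes of 0.35 to 0.83 and the nidogens of 0.04 and 0.21, none called. The highest of these, that of Col4a4, rested on 2, 3 and 6 counts in vehicle and 9, 14 and 20 in camptothecin. Among 9 laminin chains 7 were above 0 at 36 h.

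The chains of collagens I and III also lay above 0 at 36 h without a call, but fibrillar chains as a set did not. Of 9 fibrillar chains 4 lay above 0 and 5 below, with a median log2 fold change of -0.06. For Col1a2 vehicle libraries held 363, 309 and 276 CPM and camptothecin libraries 495, 392 and 369.9 CPM. Its groups did not overlap (log2 fold change 0.41 ± 0.17, adjusted p = 0.252). Col5a1, a chain that starts collagen I fibrils, had a value of 0.49 ± 0.18 (adjusted p = 0.184). Fn1 held 210.1, 146 and 161 CPM in vehicle and 325, 222 and 257 CPM in camptothecin, again without overlap (0.64 ± 0.24, adjusted p = 0.173). Col23a1, a collagen with a membrane-spanning stretch, held 39.5, 39.8 and 30.8 CPM in vehicle and 68.9, 46.3 and 56.6 CPM in camptothecin (0.65 ± 0.22, adjusted p = 0.137). Sparc, a collagen-binding matricellular protein, had 0.59 ± 0.28 (adjusted p = 0.318). The proteoglycans Lum and Bgn differed by 0.14 ± 0.20 (adjusted p = 0.788) and 0.30 ± 0.24 (adjusted p = 0.590). The 95% interval for Lum ran from -0.27 to 0.56, and whether Lum differed from Dcn was not tested.

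Markers of fibroblasts lay above 0 beside these genes at 36 h. None of 8 tested fibroblast markers was called at 36 h (edgeR), yet all 8 had log2 fold changes above 0, with a median of 0.66. The summed level of the 8 ranged from 314 to 339 CPM in vehicle 36 h libraries and from 437 to 626 CPM in camptothecin 36 h libraries, with no overlap. Perineurial markers were above 0 for 5 of 5, with a median of 0.51. They summed to 259 to 381 CPM in vehicle and 377 to 468 CPM in camptothecin, which overlapped slightly. In bulk tissue more cells of a type and more RNA per cell cannot be told apart, and the part of these markers in the matrix differences was not tested. Schwann cell markers summed to 4110 to 6013 CPM in vehicle and 4623 to 5202 CPM in camptothecin, which overlapped. Of the 11, 9 had log2 fold changes above 0, with a median of 0.41, and 1, Pmp22, was called higher (0.76, adjusted p = 0.0189). Red cell markers moved the other way at 36 h, with 35.3 to 93.9 CPM in vehicle and 3.84 to 12.9 CPM in camptothecin, and 3 of 6 were called lower. Among all transcripts 0.188% were called higher and 2.32% lower at 36 h. No marker on these 4 lists was at 0 in all libraries. The other lists did not share the shift at 36 h evenly. Satellite glia (4 of 8 above 0, median -0.01), endothelial (2 of 5, -0.05) and mural markers (3 of 6, -0.03) had medians near 0. Macrophage markers lay above 0 for 5 of 8 (median 0.20) and sensory neuron markers for 3 of 11 (median -0.18). Single markers on these lists were called lower at 36 h all the same (edgeR). The satellite glia marker Cadm2 went from 192 CPM in vehicle to 102 CPM in camptothecin (-0.91, adjusted p = 0.0114). The sensory neuron marker Isl1 went from 76.9 to 38.8 CPM (-0.98, adjusted p = 0.0135).

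**Figure D3:**
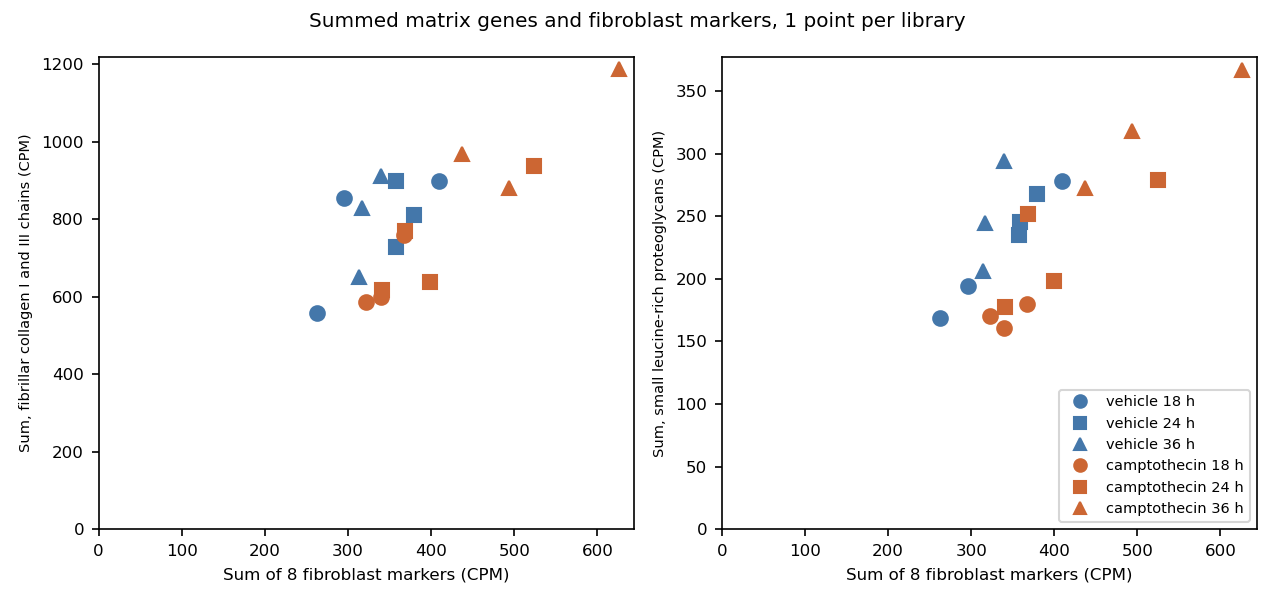
Summed level of Col1a1, Col1a2 and Col3a1 (left) and of Dcn, Lum and Bgn (right) against the summed level of 8 fibroblast markers, in CPM, 1 point per library. Colours give treatment and shapes the time after crush. The camptothecin 36 h libraries lie at marker sums of 437 to 626 CPM and vehicle 36 h libraries at 314 to 339 CPM.

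The 3 camptothecin 36 h libraries held summed collagen I and III chains of 880.5 to 1187 CPM and summed proteoglycans of 273 to 367 CPM. Vehicle 36 h libraries held 651 to 912 CPM and 206 to 294 CPM, so both sums overlapped. All 46 members together made up 3184 to 3974 CPM in camptothecin and 2377 to 3232 CPM in vehicle at 36 h. The highest library for each of these sums was camptothecin 36 h replicate 1. Without it the median log2 fold change of members at 36 h was 0.21. With a correction for the GC content of transcripts it was 0.14, with replicate number as a block 0.19, and with both together 0.06, with 26 of 46 values above 0.

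Averaged over the 3 times, 3 of 46 members differed between camptothecin and vehicle: Col11a1 and Col25a1 were lower and Lamc1 was higher. Among all transcripts 10.3% were called in this comparison, 2.59% higher and 7.69% lower. Log2 fold changes of members were spread around 0, with 27 above, 19 below and a median of 0.07. With the GC correction, alone or with the replicate block, the median was -0.06, with 20 above 0. For all transcripts the median was 0.01.

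Col11a1 (ENSMUST00000092155, chromosome 3, 114030540 to 114220718, plus strand, 67 exons) was below vehicle at each time. At 18 h vehicle libraries held 14.6, 17.5 and 20.1 CPM and camptothecin libraries 11.3, 9.41 and 15.5 CPM. At 24 h vehicle held 12.7, 11.2 and 13.8 CPM and camptothecin 9.11, 7.71, 7.93 and 9.78 CPM. The arms overlapped at 18 h by 1 camptothecin library and were separate at 24 h and 36 h. The fall averaged over times was -0.64 ± 0.12 on the log2 scale (edgeR adjusted p = 0.00114). It passed in all 19 fits that left out 1 library (adjusted p between 0.000617 and 0.00394) and under all 8 other settings tried. By time alone, the log2 fold changes were -0.53 at 18 h, -0.54 at 24 h and -0.84 at 36 h, and the difference between 36 h and 18 h did not pass (-0.31 ± 0.30, adjusted p = 0.989).

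Col25a1 (ENSMUST00000106353, chromosome 3, 130180891 to 130599877, plus strand, 35 exons) encodes a membrane-spanning collagen of neurons. At 24 h vehicle libraries held 16.7, 7.65 and 16.3 CPM and camptothecin libraries 4.84, 9.66, 5.95 and 4.84 CPM. A single low vehicle library overlapped the camptothecin range there. At 36 h vehicle held 16.6, 13.5 and 6.97 CPM and camptothecin 8.34, 9.06 and 9.50 CPM. The average over times was -0.59 ± 0.18 (adjusted p = 0.0410). It passed in 5 of the 19 fits that left out 1 library, those without vehicle 18 h replicate 4, vehicle 24 h replicate 2, vehicle 36 h replicate 4, camptothecin 18 h replicate 2 or camptothecin 24 h replicate 2, and its adjusted p lay between 0.0558 and 0.109 without any other. It was also lost with a GC correction (adjusted p = 0.180), with that correction and the replicate block together (0.0504) and with thinned counts (0.0664).

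Sequence upstream of these 2 genes is shown because they carried the falls, beside that of Col3a1, an abundant fibrillar chain that was not called. Each line is the 250 bases ahead of the RefSeq start (GRCm38.p6, plus strand, read 5′ to 3′). The window of Col25a1 ends 46 bases before the member transcript begins. Capitals mark CCAAT (a box bound by NF-Y), TATAAA (the box bound by TBP), GGGCGG (a GC box bound by Sp1) and CAGACA (which holds a core bound by SMAD proteins), read on either strand. They are found at chr3:114030290-114030539 for Col11a1, chr3:130180595-130180844 for Col25a1 and chr1:45311288-45311537 for Col3a1.
Col11a1: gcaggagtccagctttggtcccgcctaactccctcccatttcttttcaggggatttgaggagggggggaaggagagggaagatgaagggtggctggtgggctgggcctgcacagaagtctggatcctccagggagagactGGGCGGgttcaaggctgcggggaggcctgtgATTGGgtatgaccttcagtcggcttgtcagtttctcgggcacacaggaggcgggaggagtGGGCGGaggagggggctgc
Col25a1: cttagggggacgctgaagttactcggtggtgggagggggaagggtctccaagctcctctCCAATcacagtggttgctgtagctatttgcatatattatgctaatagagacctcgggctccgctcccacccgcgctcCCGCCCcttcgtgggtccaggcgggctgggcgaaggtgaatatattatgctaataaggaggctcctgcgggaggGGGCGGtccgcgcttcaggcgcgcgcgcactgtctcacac
Col3a1: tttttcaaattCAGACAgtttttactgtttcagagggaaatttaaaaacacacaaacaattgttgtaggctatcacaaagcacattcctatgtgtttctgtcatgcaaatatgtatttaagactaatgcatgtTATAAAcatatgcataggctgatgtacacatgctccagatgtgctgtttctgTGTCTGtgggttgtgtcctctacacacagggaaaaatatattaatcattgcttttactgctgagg
Col11a1 and Col25a1 both held 1 CCAAT box and 2 GC boxes, and neither held TATAAA or CAGACA. Col3a1 held TATAAA once, CAGACA 2 times and neither of the others. Promoter windows whose RefSeq start lay within 200 bases of the member transcript's start were found for 28 members. Of these, 17 held GGGCGG (60.7%, against 32.7% of 32817 promoters), 8 held CCAAT (28.6% against 33.8%), 8 held CAGACA (28.6% against 17.1%) and 2 held TATAAA (7.14% against 12.4%). These are matches of letters only, and members' transcripts were richer in GC (median 52.5%) than all those tested (48.2%).

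The levels of Col11a1 and Col25a1 were also compared with each other. Over the 19 libraries their log2 levels had r = 0.573 and rho = 0.583 (adjusted permutation p = 0.0143 and 0.0123), and r = 0.605 without the 2 farthest libraries, but within the 6 groups r was -0.18. Both genes had been called lower in camptothecin in these same libraries, so a relation over the pooled arms was built in. The permutation shuffled libraries across groups, so its p-values are no separate support. The relation rested on differences between the groups. Against the mean of all members' standardised levels, Col11a1 had the lowest r of the 46 genes (-0.39). Col1a2 (0.929), Fn1 (0.904) and Bgn (0.878) had the highest. These values share the members' own levels and describe the libraries only.

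Lamc1 (ENSMUST00000027752, chromosome 1, 153218922 to 153332786, minus strand, 28 exons) was the one member called higher in the average over times (0.28 ± 0.09, adjusted p = 0.0426). At 18 h vehicle libraries held 146, 117 and 119 CPM and camptothecin libraries 157, 119 and 115 CPM, which overlapped closely. At 24 h vehicle held 124, 120.1 and 132 CPM and camptothecin 184, 149, 153 and 118 CPM. Separation was complete at 36 h alone. The call was lost in 11 of 19 fits: without vehicle 18 h replicates 3 or 4, any vehicle 24 h library, vehicle 36 h replicates 3 or 4, camptothecin 18 h replicate 2 or any camptothecin 36 h library (adjusted p between 0.0533 and 0.106). With a GC correction the value was 0.17 (adjusted p = 0.433), and with the replicate block added 0.16 (adjusted p = 0.202). All 9 laminin chains had averages above 0 (0.09 to 0.37), and only that of Lamc1 was called. Schwann cell markers called in the same comparison included Pmp22 (0.49) and Sox10 (0.28), which were higher, and Scn7a (-0.21), which was lower, and their part in the value of Lamc1 was not tested.

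**Figure D4:**
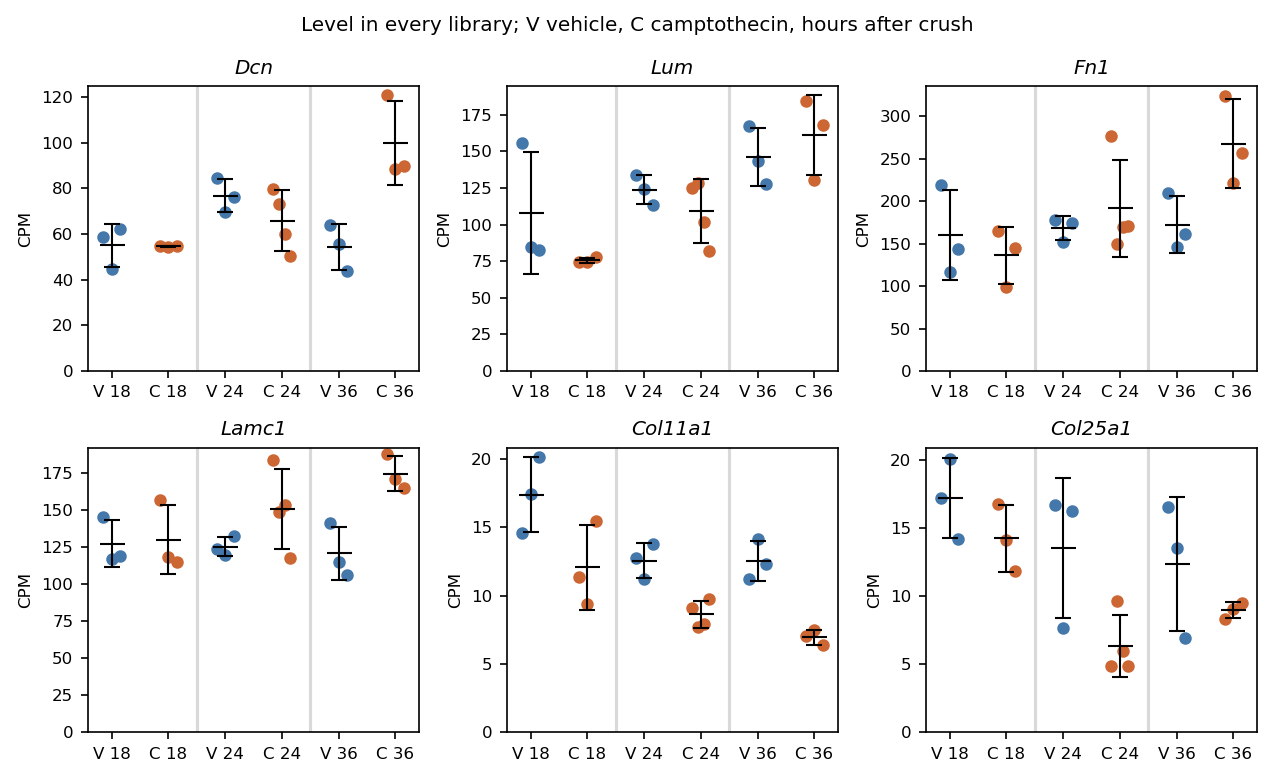
CPM of Dcn, Lum, Fn1, Lamc1, Col11a1 and Col25a1 in each library (points), with group mean and SD (black), for vehicle (V, blue) and camptothecin (C, orange) at 18, 24 and 36 h. The mean of Col11a1 is lower in camptothecin at each time, and Dcn separates at 36 h, at 43.8 to 63.7 CPM in vehicle and 88.5 to 121 CPM in camptothecin.

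At 18 h 5 of 46 members had an unadjusted p under 0.05 (edgeR), as did 14.9% of all transcripts. No member was called, against 1.58% of all transcripts (0.317% higher, 1.26% lower). That background of 294 calls was 5, 1 and 19 without camptothecin 18 h replicates 2, 3 and 4. It was 12 without vehicle 18 h replicate 1, and 46, of which 38 were higher, without vehicle 18 h replicate 3. Leaving out libraries of other times moved it too, to 157 without camptothecin 24 h replicate 3, 173 without vehicle 24 h replicate 3, 180 without camptothecin 36 h replicate 3 and 723 without vehicle 36 h replicate 4. The GC correction left 8 calls, and 51 with the replicate block added. Log2 fold changes lay below 0 for 31 of 46 members, with a median of -0.14 against -0.02 for all transcripts. Col8a1 had the smallest adjusted p: vehicle libraries held 167, 96.3 and 139 CPM and camptothecin libraries 92.8, 81.0 and 94.2 CPM. Camptothecin lay wholly below vehicle, though narrowly (-0.59 ± 0.22, adjusted p = 0.197). Lum held 156, 84.9 and 82.3 CPM in vehicle and 74.6, 74.7 and 77.5 CPM in camptothecin (-0.51 ± 0.20, adjusted p = 0.231). Its groups were separate too, with vehicle replicate 1 far above the other two. In the other direction Lama5 stood at 5.06 ± 0.943 CPM in vehicle and 8.67 ± 1.56 CPM in camptothecin (0.77 ± 0.32, adjusted p = 0.248). Groups did not overlap for 2 members higher and 6 lower, against 8.07% and 11% of all transcripts.

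At 24 h no transcript of the table was called (0% of 18606, edgeR), though 92 were without vehicle 36 h replicate 4. An unadjusted p under 0.05 was held by 5 of 46 members and by 7.98% of all transcripts. DESeq2 called 1 member at 24 h, Col25a1 (log2 fold change -1.07, adjusted p = 0.0416), and 124 of the 7424 transcripts it gave an adjusted p (1.67%), 115 of them lower. In the edgeR fit its value was -1.07 ± 0.30 with an adjusted p of 0.283. Postn, a matricellular protein of injured and remodelling tissue, had the largest value above 0 (1.01 ± 0.48, adjusted p = 0.611) at 1.83 ± 0.615 and 3.70 ± 1.94 CPM, measured on its noncoding transcript. Lama4 stood at 54.7 ± 0.809 CPM in vehicle and 69.0 ± 12.3 CPM in camptothecin (0.33 ± 0.14, adjusted p = 0.515), the one member whose camptothecin libraries all lay higher. Col11a1 was the one whose camptothecin libraries all lay lower. Non-overlap was seen for 9.03% of all transcripts at 24 h, 3.83% higher and 5.2% lower.

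Within the camptothecin arm, 2 members were higher at 36 h than at 18 h, both proteoglycans. In this comparison 0.511% of all transcripts were called, 0.36% higher. That background of 95 calls was 36 and 42 without camptothecin 18 h replicates 2 and 3, 41 without camptothecin 36 h replicate 1 and 160 without vehicle 36 h replicate 4. Lum (lumican, chromosome 10, 97565128 to 97572703) held 74.6, 74.7 and 77.5 CPM at 18 h and 184, 131 and 168 CPM at 36 h. Levels at 36 h were far clear of the narrow range at 18 h. Lum rose by 1.09 ± 0.20 on the log2 scale, or 2.13-fold (edgeR adjusted p = 0.0101). Dcn held 54.6, 54.1 and 54.8 CPM at 18 h against the 88.5 to 121 CPM at 36 h, a rise of 0.87 ± 0.17 (adjusted p = 0.0195). Both calls were lost without camptothecin 18 h replicate 2 (Lum 0.0696, Dcn 0.102), camptothecin 18 h replicate 3 (0.0661 and 0.0941) or camptothecin 36 h replicate 1 (0.0882 and 0.185). That of Dcn was also lost without camptothecin 18 h replicate 4 (0.0660) and with a GC correction (0.0586).

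Other matrix genes lay above 0 in the same comparison without passing. In all, 36 of 46 log2 fold changes were above 0, with a median of 0.39 against -0.02 for all transcripts. For 15 members all 36 h libraries were higher and for 3 all were lower, against 9.62% and 8.75% of transcripts. Fn1 held 165, 99.5 and 145 CPM at 18 h and 325, 222 and 257 CPM at 36 h (0.98 ± 0.24, adjusted p = 0.0651). Col6a5, a long collagen VI chain, went from 3.59 ± 1.68 to 9.93 ± 3.40 CPM (1.45 ± 0.39, adjusted p = 0.103). Col1a1 (0.67), Col3a1 (0.75), Col6a2 (0.74) and Nid1 (0.53) also had their 36 h libraries all above those at 18 h. DESeq2 called 9 members in this comparison, 8 higher, among them these 4, Fn1 and Col6a5, and 1 lower, Col11a1. It called 383 of 9947 transcripts given an adjusted p (3.85%), 210 higher and 173 lower. In the edgeR fit the value of Col11a1 was -0.79 ± 0.21 (adjusted p = 0.107).

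**Figure D5:**
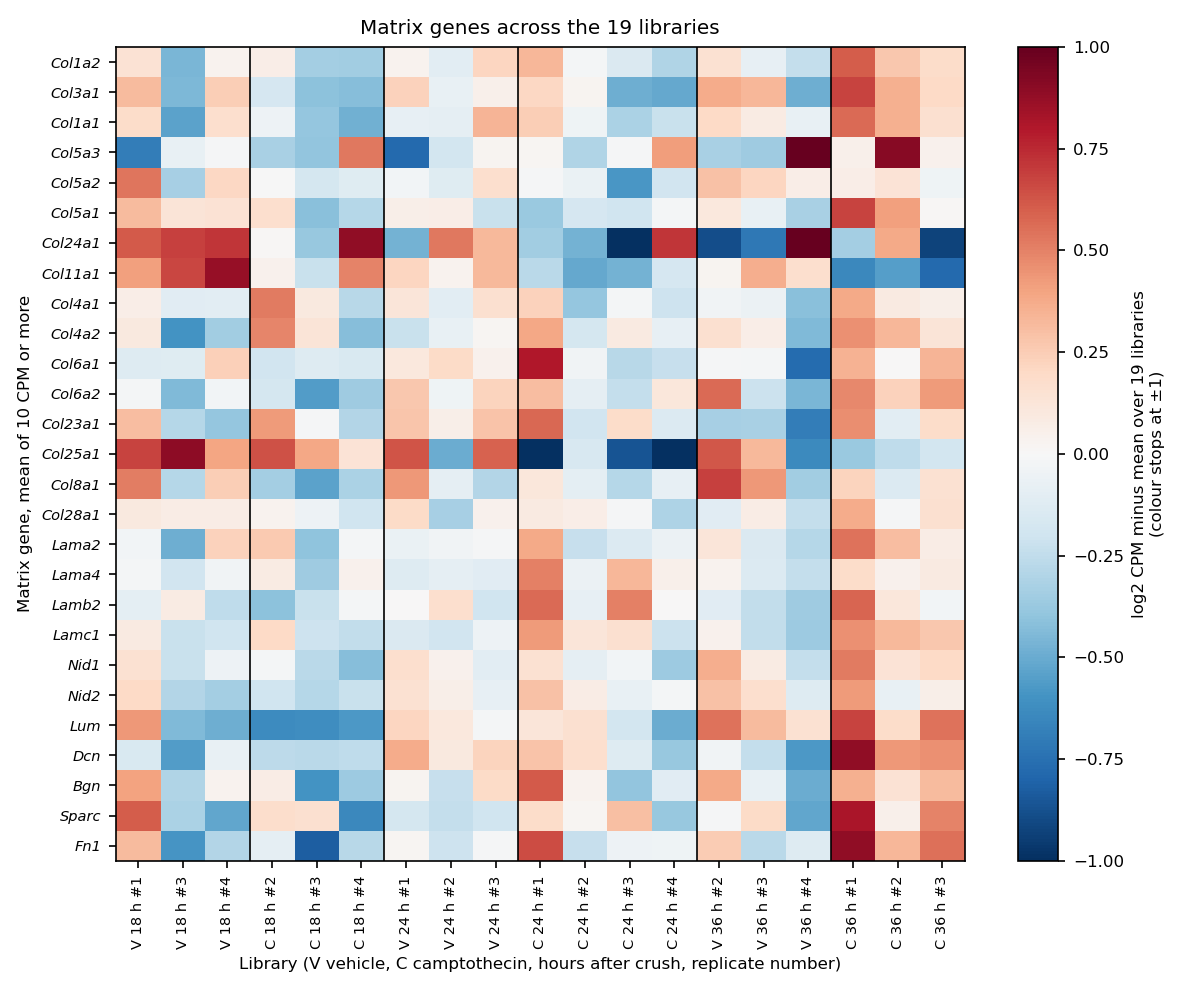
Log2 CPM of the 27 matrix genes with a mean of at least 10 CPM, each minus its mean over 19 libraries, with colours stopping at ±1. Columns are libraries ordered by time and treatment, named by arm (V vehicle, C camptothecin), hours and replicate number. Camptothecin 36 h columns are mostly red and camptothecin 18 h columns mostly blue, and Col11a1 is lowest in the camptothecin 36 h columns.

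In vehicle no member was called at 36 h against 18 h (1.44% of all transcripts, edgeR). None was called at 24 h against 18 h either (0.231% of transcripts, 0.161% higher and 0.0699% lower). An unadjusted p under 0.05 was held at 36 h by 5 of 46 members and 11.8% of all transcripts, and at 24 h by 6 members and 12.3%. The median of members was -0.04 at 36 h and -0.02 at 24 h. Between 36 h and 18 h in vehicle 3 members had all libraries higher and 4 all lower, against 7.86% and 6.67% of transcripts, and between 24 h and 18 h 3 and 5, against 8.36% and 9.29%. Lum in vehicle held 156, 84.9 and 82.3 CPM at 18 h and 167, 143 and 128 CPM at 36 h, which overlapped through replicate 1 of 18 h (0.44 ± 0.20, adjusted p = 0.396). Without that library the value was 0.82 with an adjusted p of 0.0294. Dcn in vehicle did not differ between 18 h and 36 h beyond its spread (-0.03 ± 0.18, 95% interval -0.41 to 0.35). Col6a5 stood at 3.46 ± 1.25 CPM at 18 h and 9.51 ± 3.39 CPM at 36 h without overlap (1.47 ± 0.43, adjusted p = 0.102), close to its values in camptothecin. DESeq2 called Col6a5 in vehicle (1.495, adjusted p = 0.0238), and 4.71% of the 12112 transcripts given an adjusted p. Between 24 h and 18 h in the camptothecin arm no transcript was called (0%). An unadjusted p under 0.05 was held in that comparison by 7 members and by 5.05% of all transcripts. There the 24 h libraries of Nid2, Lum and Col8a1 all lay above those at 18 h and those of Col25a1 all below, against 3.11% and 3.21% of transcripts (6.32% in all).

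Whether the drug effect itself differed between 36 h and 18 h was tested as the difference of the 2 effects. No member passed, against 0.0107% of all transcripts. The difference was 0.90 ± 0.25 for Dcn (unadjusted p = 0.00182, adjusted p = 0.986), 0.84 ± 0.26 for Col5a1 and 0.86 ± 0.33 for Fn1 (both adjusted p = 0.986). Of 46 members 35 lay above 0 and 11 had an unadjusted p under 0.05, with a median of 0.39 against -0.03 for all transcripts. Among all transcripts 47.5% lay above 0 and 4.95% had an unadjusted p under 0.05. An effect of camptothecin on Dcn at 36 h and not at 18 h is therefore not shown to differ between the times at this adjustment.

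Genes that make, cut and bind the matrix were counted from lists set beside the members. Of 23 collagen processing enzymes and chaperones none was called at 18, 24 or 36 h, against 1.58%, 0% and 2.5% of all transcripts. In the average over times Mia3, which loads collagen into export vesicles, was higher (0.24, adjusted p = 0.0267) and Tll1, a protease that trims procollagen, was lower (-0.54, adjusted p = 0.0218). The cross-linking enzyme Lox had an average of -0.52 (adjusted p = 0.0842). Among all transcripts 10.3% were called in the average over times, 2.59% higher and 7.69% lower. Of 15 matrix proteases and inhibitors, the membrane metalloprotease Mmp16 was lower at 36 h, at 45.5 CPM in vehicle and 22.9 CPM in camptothecin (-0.99, adjusted p = 0.0467), and higher in vehicle at 36 h than at 18 h (1.28, adjusted p = 0.0176). Among all transcripts 2.32% were called lower at 36 h and 1.01% higher in vehicle at 36 h against 18 h. Mmp17 was higher in the average (0.47, adjusted p = 0.0491). The gelatinase Mmp2 rose within camptothecin from 16.5 CPM at 18 h to 43.6 CPM at 36 h (1.41, adjusted p = 0.00432). This was the comparison in which Lum and Dcn rose, and 0.36% of all transcripts were called higher in it.

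Of 13 collagen and laminin receptors, 3 were higher in the average over times and none lower, against 2.59% and 7.69% of all transcripts. The 3 receptors were the matrix-binding syndecans Sdc1 (0.57, adjusted p = 0.00281) and Sdc3 (0.33, adjusted p = 0.00407), and Bcam, a receptor for the laminin alpha5 chain (0.27, adjusted p = 0.00944). In vehicle Sdc1, Bcam and the laminin-binding integrin chain Itga7 were higher at 36 h than at 18 h, against 1.01% of all transcripts. Itga7 had means of 71.9 CPM at 18 h and 145 CPM at 36 h. Sdc1 rose with time in camptothecin too, from 25.3 to 61.7 CPM (1.29, adjusted p = 0.00232). Of 13 genes of TGF-beta signalling, which controls many matrix genes, none was higher in the average and 2 were lower, against the same 2.59% and 7.69%. The 2 were the receptor Tgfbr1 (-0.56, adjusted p = 0.00128) and Smad4 (-0.22, adjusted p = 0.0477).

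Macrophage markers also moved in the comparison of 36 h with 18 h within camptothecin. Of 8 tested, Mrc1 and C1qb were called higher (1.33 and 1.32, edgeR adjusted p = 0.00255 and 0.0270), against 0.36% of all transcripts. The 8 markers summed to 59.6 to 90.2 CPM at 18 h and 149.6 to 205 CPM at 36 h. Fibroblast markers summed to 322 to 368 CPM at 18 h and 437 to 626 CPM at 36 h in that arm, and sensory neuron markers to 33833 to 38976 CPM and 24157 to 27600.3 CPM. None of these 3 marker groups overlapped between the times. Perineurial (286.9 to 289.8, then 377 to 468 CPM) and satellite glia markers (1205 to 1320, then 1565 to 1817 CPM) did not overlap either. In vehicle, macrophage markers (77.1 to 107.4 CPM at 18 h, 108.3 to 173.2 at 36 h) were also apart. So were sensory neuron markers there (34385 to 36364, then 27585 to 34088 CPM), while fibroblast markers overlapped. Nefl, Nefm and Nefh made up most of the neuron sum at camptothecin 18 h (means 16035, 9923 and 3050 CPM). These 3 were called lower in camptothecin, against 0.15% of all transcripts, and 1 of 11 neuron markers lay above 0. In vehicle 4 of 11 lay above 0. There Tubb3 was called higher (0.59, edgeR adjusted p = 0.00634) and Scn10a lower (-0.58, adjusted p = 0.0328), against 1.01% and 0.43% of all transcripts. The part of all these markers in the rise of Lum and Dcn was not tested.

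Outside the members, the transcripts most like their mean standardised level over the 19 libraries were Mr1 (r = 0.882), Egfr (0.840), Itih5 (0.822), 4932411E22Rik (0.812) and Mmp2 (0.803), of 6897 candidates with a mean of at least 10 CPM. Members span longer genes than the table at large, with a median of 91.3 kb against 27.1 kb. Across members, the log2 fold change averaged over times had a rank correlation of 0.435 with GC content, and over all annotated transcripts 0.465. With gene span, the change from 18 h to 36 h in camptothecin had a rank correlation of -0.423 over members and -0.139 over all annotated transcripts. All of these are correlations across genes, which are no replicates, and are given as descriptions.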

How the data were processed

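RNA from dorsal root ganglia was sequenced in paired-end libraries made with the Nugen Ovation V2 kit, per the labels' protocols. The submitters' processing notes name CASAVA 1.8.2, limma and mm10. No aligner or annotation is named there or in the labels. The deposited table holds raw counts per transcript and, per the file headers, the authors' log2 fold changes, p-values and adjusted p-values. Column names give the time and replicate number and an arm letter, and the letter was read from the authors' named contrasts in the same table. The authors' fold changes were recovered from their own columns under this reading to within 8.7e-14 at 18 h, and missed by up to 4.32 with the arm letters exchanged.

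Counts were fitted with edgeR 4.0.16 in R 4.3.3 (quasi-likelihood test, TMM, 6 group means, 19 libraries, 13 residual degrees of freedom). The filter (filterByExpr, minimum count 10, minimum total 15) kept 18606 of 19571 transcripts, and p-values were adjusted by Benjamini-Hochberg over all of them, with a threshold of 0.05. The fit was also run on simulated counts, and the outcome is not given here. Those counts held no GC trend and no single-library effect, so they cannot show how the fit behaves under either. Library totals are given with the results, and counting error is widest for genes with few counts. Alternatives were DESeq2 1.42.0, its size factors, no filter, transcripts summed per symbol, a GC correction, a replicate block, thinned counts and each library left out. Annotation and promoter sequences came from GENCODE vM21 and RefSeq. Members, gene lists and tests were chosen with earlier results of these data known. Genes were named if called, if among the 4 smallest p-values of a drug comparison, or if among the 2 most abundant of a role, plus a fixed set. Whether each sample was a separate animal is not said in the labels, and the p-values may rest on technical spread alone. Some single-gene values are not reported here.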

Additional observations from a re-analysis of the deposited data

Results flagged for a closer look

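In the 4 camptothecin libraries at 24 h, replicate 1 stood apart from the others for 2 of 46 members by Dixon's test. Fn1 measured 277 CPM there against a group median of 170.1 CPM, and Col6a1 measured 39.1 CPM against a median of 20.4 CPM. Chance flags about 1 in 20 groups.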

How the results depend on the processing

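No single gene called in the edgeR fit changed sign under any alternative tried, but medians over members did. In the average over times the median was -0.06 with the GC correction, with or without the replicate block. At 24 h it rose above 0 without vehicle replicate 1 (0.03) or camptothecin replicates 2 (0.03) or 4 (0.01). Medians in vehicle against 18 h reached 0.11 at 24 h without 18 h replicate 1, and 0.06 at 36 h without 36 h replicate 4. DESeq2 called 1 member at 24 h, 1 in vehicle at 36 h against 18 h and 9 in camptothecin at 36 h against 18 h. Of the transcripts it gave an adjusted p, it called 1.67%, 4.71% and 3.85% in these comparisons. The GC correction left 1 member called at 36 h (Dcn), 1 in the average over times (Col11a1) and 1 in camptothecin at 36 h against 18 h (Lum). Of all 18606 transcripts it left 35, 615 and 50 called in these comparisons. The replicate block left 1 member called at 36 h, alone or with the GC correction, where 845 and 498 of all 18606 transcripts were called. Deviations from group means correlated at -0.21 to 0.23 between same-numbered libraries and at -0.22 to 0.31 between others. With so few libraries a group, these values cannot tell whether the numbers pair libraries. Leaving out 1 library gave 0 to 3 members called at 36 h, 1 to 3 in the average over times, 0 to 1 in vehicle at 36 h against 18 h and 0 to 3 in camptothecin at 36 h against 18 h. Over all transcripts, 18193 to 19236 tested, the same fits called 1 to 1015, 1427 to 2503, 151 to 294 and 36 to 160 in these comparisons. The cause of these shifts was not tested. Vehicle libraries were the shallower, which limits genes with few counts such as Col11a1.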

Other observations

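Col5a3 and Col24a1, minor fibrillar chains, were highest in vehicle 36 h replicate 4, at 76.3 and 28.0 CPM. The other 2 vehicle 36 h libraries held 22.2 and 21.8 CPM of Col5a3, and 7.32 and 8.25 CPM of Col24a1. In the same library Col1a2, Col3a1 and Nid1 were the lowest of their group, at 276, 158 and 416 CPM.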
